A study of Mus musculus with 12 samples.

Results

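The genes described here are 34 markers of macrophages and other leukocytes, listed by gene name. They were followed in kidneys of mouse embryos at embryonic day 14.5, where *Bdkrb2* null embryos were compared with wild-type (WT) embryos. *Bdkrb2* encodes the bradykinin B2 receptor. A probe of the array matched 33 of the 34 genes through its RefSeq accession, and 28 of the 34 were bright enough to test, out of 12647 genes tested in all. The members were covered by 49 probes, of which 37 were tested. *Cd68*, a lysosomal glycoprotein gene of macrophages, had no matching accession and is not analysed here.

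All embryos, null and WT, came from *Bdkrb2* heterozygous mothers mated to heterozygous mice on a C57BL/6 background, and all mothers ate food with 5% sodium. Salt load is therefore shared by both groups, and no group on ordinary food is analysed here. Each of 12 two-colour arrays compared null RNA directly with WT RNA. Cy5 marked the null RNA on 6 arrays (null/WT) and the WT RNA on the other 6 (WT/null), and each orientation had 3 replicates on 2 arrays each. Every slide carried both orientations of 1 replicate number, so slides 1, 2 and 3 hold replicates 1, 2 and 3. The series text calls the replicates biological, but the labels do not say whether a sample held 1 embryo or a pool, or whether both orientations of a number shared an RNA extract. The p-values measure the spread between these samples only. Both replicates of a number deviated together (correlations 0.587, 0.517 and 0.413 for numbers 1, 2 and 3), so the 6 replicates may not be independent. Unless the replicate block is named, SEs, intervals and p-values come from a fit that treats them as 6 independent values. The replicate block is the same fit with the replicate number as a block.

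Macrophages enter the embryonic kidney early, from yolk sac and later fetal liver precursors, and depend on the receptor CSF1R for growth and survival. They clear dying cells, tag material for uptake with complement component C1q, and sense it through Fc receptors and TREM2, which signal through the adaptors FCER1G and TYROBP. The transcription factor PU.1, encoded by *Spi1*, drives much of this programme by binding purine-rich sites that hold the letters GAGGAA, often beside IRF8.

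These sites were looked up in the RefSeq promoter windows (GRCm38.p6, 250 bases before to 50 after a start site) to show what the members share in sequence. Windows were found for 24 of the 34 members. GAGGAA, on either strand, was in 18 of 29 member windows (62.1%) and in 28.3% of all 32851 windows. The longer GAGGAAGT, which contains it, was in 5 of 29 member windows (17.2%) and in 3.20% of all. TATAAA, searched for comparison, was in 13.8% of member windows and 13.6% of all. A match is a description of the letters and does not show binding in the kidney. The stretches below, each 60 of the 250 bases before a start site on the gene's strand, show a match in capitals for the genes of 2 C1q chains, TREM2, the high-affinity Fc receptor, platelet factor 4 and VAV1. Where the capitals read ACTTCCTC or TTCCTC the site lies on the opposite strand.

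C1qc, chr4:136893076-136893135 (minus strand): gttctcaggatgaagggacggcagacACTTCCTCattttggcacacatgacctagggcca
C1qb, chr4:136886201-136886260 (minus strand): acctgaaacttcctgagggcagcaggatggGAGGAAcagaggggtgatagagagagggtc
Trem2, chr17:48346335-48346394 (plus strand): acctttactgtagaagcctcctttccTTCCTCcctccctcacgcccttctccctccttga
Fcgr1, chr3:96293991-96294050 (minus strand): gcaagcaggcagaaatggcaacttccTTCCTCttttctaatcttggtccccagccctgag
Pf4, chr5:90772375-90772434 (plus strand): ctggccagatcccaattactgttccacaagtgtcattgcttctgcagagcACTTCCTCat
Vav1, chr17:57279040-57279099 (plus strand): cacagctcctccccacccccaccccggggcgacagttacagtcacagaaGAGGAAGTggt

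Between 41.2% and 60.04% of spots were well above background per array and dye. The first array of WT/null replicate 3 stood apart, with a log2 ratio SD of 0.38 against 0.16 to 0.26 on the other 11. The deleted gene could not check the labels, since the *Bdkrb2* probe was well above background on 0 of 12 null and 1 of 12 WT arrays. *Xist*, the transcript of the inactive X chromosome, stood at 0.20, 2.42 and 1.89 (log2 null over WT) on slides 1, 2 and 3. On slides 2 and 3 these log2 ratios rest on a WT signal that was not well above background, as *Xist* was so on 12 of 12 null and 4 of 12 WT arrays. The Y-linked genes *Ddx3y*, *Eif2s3y* and *Kdm5d* were well above background on 4 of 4 WT and 0 of 4 null arrays of slide 2, on the same counts of slide 3, and on 0 arrays of slide 1. On slides 2 and 3, null against WT was thus also *Xist*-bearing against Y-bearing RNA, and sex and genotype cannot be told apart there. On slide 1, where both genotypes lacked the Y-linked signal, the members' median was -0.02 and 12 of 28 were above 0. The markers of kidney progenitors, ureteric bud and podocytes were present: 12 of 14 were well above background on all WT arrays and 11 of 14 on all null arrays.

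Most member transcripts were readily measured in kidneys of both genotypes. Of the 28 tested members, 23 were well above background on all 12 null and all 12 WT arrays. They include *Csf1r*, the C1q genes, *Adgre1* (the F4/80 antigen), *Aif1*, *Tyrobp*, *Fcer1g*, *Fcgr1*, *Trem2*, *Ctss* and *Cx3cr1*. Another 5, *Lyz2*, *Itgb2*, *Cd53*, *Vav1* and *Cybb*, were dimmer and missed that level on 1 to 6 arrays of a genotype. Of the 5 members with a probe that were not tested, *Itgam* (the integrin CD11b), *Ccr2* (the monocyte chemokine receptor), *Mrc1* (the mannose receptor CD206) and *Ccl3* were well above background on 0 of 12 null and 0 of 12 WT arrays. *Spi1* was so on 2 null arrays and 1 WT array. These counts are from the brightest probe of a gene. A further probe each of *Csf1r*, *Ptprc* and *Cybb* was well above background on 0 null and 0 WT arrays. For *Adgre1* a further probe was so on 1 null and 0 WT arrays, and for *Cx3cr1* on 3 and 3. A probe below background does not show that the transcript is absent.

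No member differed between null and WT past the threshold. Of 28 tested members, 0 passed a limma adjusted p of 0.05 over all 22979 tested probes, where 9 probes (0.0392%) passed. The smallest adjusted p was 0.659. At an unadjusted p under 0.05, 2 members were above 0 (7.14%, against 5.19% of all 12647 genes by their brightest probe) and 1 was below 0 (3.57%, against 2.59%), which is near the background in each direction. With the replicate block 0 members were above and 0 below 0 at that threshold, against 2.61% and 0.886% of all genes. The same sign in 6 of 6 replicates was seen in 0 members, against 3.04% of all genes.

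The fitted differences were small, and most lay slightly above 0. Over the 28 members the median log2 null over WT was 0.05, with a range from -0.14 (*Cd14*) to 0.21 (*Cd52*), and 22 were above 0 and 6 below. Over all genes the median was -0.003 and 48.1% lay above 0. The limma 95% intervals of the 28 members reached from -0.27 to 0.42, so each lay within a 1.5-fold difference in either direction. With the slide as a block of paired replicates they reached from -0.30 to 0.46, and 28 of 28 still lay within it. The offset of 50 in the background correction pulls ratios of dim probes towards 0. For the 5 dimmer members the intervals therefore bound the processed ratio and not the transcript difference. *Cybb*, *Lyz2*, *Vav1*, *Itgb2* and *Cd53* stood at 0.02, 0.06, -0.09, -0.03 and -0.06. From the scanner's ratios they stood at 0.26, 0.14, -0.09, 0.05 and 0.01. In whole kidneys, a different number of macrophages and a different amount of RNA per macrophage cannot be told apart.

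**Figure D1:**
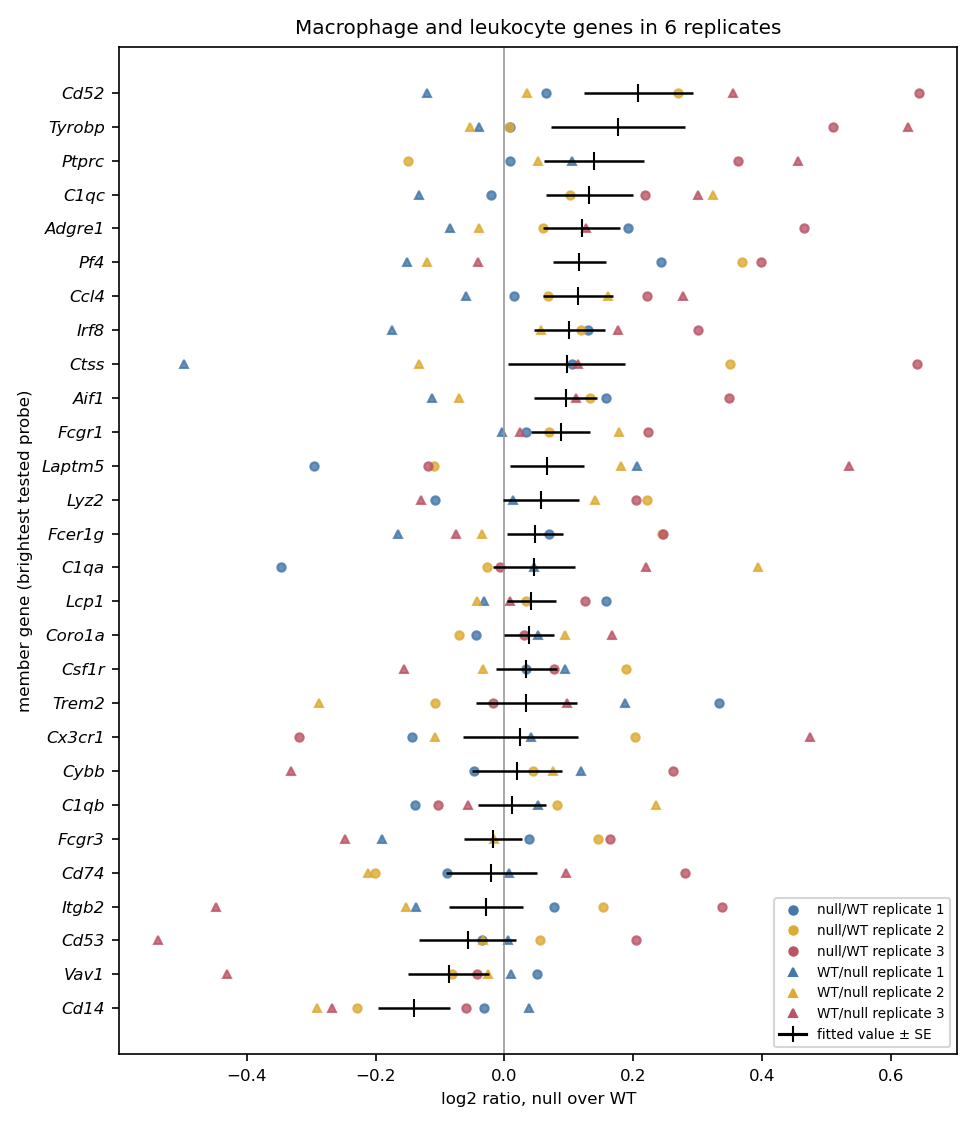
Log2 ratio of null over WT (horizontal axis) for each of 28 tested member genes (rows), with circles for null/WT and triangles for WT/null replicates, colours for slides 1 to 3, and a black bar for the fitted value ± SE. The fitted values run from -0.14 for Cd14 to 0.21 for Cd52, and the replicates of slide 3 hold many of the highest points.

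The receptors through which macrophages receive growth and guidance signals stood close to 0. *Csf1r* gave 0.03, 0.19 and 0.08 in null/WT replicates 1, 2 and 3 and 0.09, -0.03 and -0.16 in WT/null replicates 1, 2 and 3. Values on both sides of 0 occurred, and the orientations overlapped. The fitted value was 0.03 ± 0.05 (SE, n = 6 replicates on 3 slides, limma adjusted p = 0.814), with a 95% interval of -0.07 to 0.14. With the replicate block the interval was -0.09 to 0.16. *Cx3cr1*, the fractalkine receptor gene, stood at 0.02 ± 0.09 with replicates from -0.32 to 0.47. These extremes came from the null/WT and the WT/null replicate of slide 3, so both orientations of 1 slide disagreed.

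The C1q chains, encoded by neighbouring genes on chromosome 4, assemble into 1 protein. *C1qc* gave -0.02, 0.10 and 0.22 in null/WT and -0.13, 0.32 and 0.30 in WT/null replicates 1, 2 and 3. It was negative in both replicates of slide 1 and positive in all 4 replicates of slides 2 and 3. The fit gave 0.13 ± 0.07 (limma adjusted p = 0.710). *C1qa* gave -0.35, -0.03 and -0.01 in null/WT and 0.05, 0.39 and 0.22 in WT/null replicates. All WT/null values lay above all null/WT values, so for this probe the dye orientation ordered the replicates and the fit gave 0.05 ± 0.06 (adjusted p = 0.813). *C1qb* gave -0.14, 0.08 and -0.10 in null/WT and 0.05, 0.23 and -0.06 in WT/null, with a fitted 0.01 ± 0.05 (adjusted p = 0.948). On slide 2, which averages the replicates of both orientations, the 3 genes stood at 0.18 (*C1qa*), 0.16 (*C1qb*) and 0.21 (*C1qc*), on slide 1 at -0.15, -0.04 and -0.08, and on slide 3 at 0.11, -0.08 and 0.26. Differences between the 3 genes were not tested.

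Among the immunoglobulin receptors and their adaptors, 4 of 5 members were above 0, with a median of 0.05. *Fcgr1*, the high-affinity IgG receptor gene, was the least variable: null/WT replicates gave 0.03, 0.07 and 0.22, and WT/null replicates -0.004, 0.18 and 0.02. Values were above 0 in 5 of 6 replicates, with a fitted 0.09 ± 0.05 (limma adjusted p = 0.711). *Tyrobp*, the DAP12 adaptor gene, was singled out after its values were seen. It gave 0.01, 0.01 and 0.51 in null/WT and -0.04, -0.05 and 0.63 in WT/null replicates. Only the replicates of slide 3 departed from 0, in both orientations and on all 4 arrays (0.48 to 0.64). The fit gave 0.18 ± 0.10 (adjusted p = 0.723), and without slide 3 the value was -0.02. *Fcer1g*, the common gamma chain gene, stood at 0.05 ± 0.04, *Trem2* at 0.03 ± 0.08 and *Fcgr3*, a low-affinity IgG receptor gene, at -0.02 ± 0.05. *Fcgr3* gave -0.52 on the first array of WT/null replicate 3 and 0.02 on the second, and its fitted value without that first array was 0.03. *Fcgr3* has close relatives in sequence, and a probe may read more than 1 of them.

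The surface receptors that define tissue macrophages and sense endotoxin pointed in opposite directions. *Adgre1*, on chromosome 17, gave 0.19, 0.06 and 0.46 in null/WT and -0.08, -0.04 and 0.13 in WT/null replicates. The highest value in each orientation was on slide 3, and the fit gave 0.12 ± 0.06 (limma adjusted p = 0.710), or 0.03 without slide 3. *Cd14*, the endotoxin co-receptor gene, gave -0.03, -0.23 and -0.06 in null/WT and 0.04, -0.29 and -0.27 in WT/null replicates. It was below 0 in 5 of 6 replicates, the most negative of the members at -0.14 ± 0.06 (0.908-fold, unadjusted p = 0.0365, limma adjusted p = 0.7001). *Cd14* was also the 1 member below 0 with an unadjusted p under 0.05, and with the replicate block that p was 0.0722.

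Pan-leukocyte surface genes included the highest fitted value of the members, and 3 of 5 were above 0. *Cd52*, a small glycoprotein gene of leukocytes on chromosome 4, gave 0.06, 0.27 and 0.64 in null/WT and -0.12, 0.03 and 0.36 in WT/null replicates. It was above 0 in 5 of 6 replicates, and the fit gave 0.21 ± 0.09 (1.15-fold, unadjusted p = 0.0400, limma adjusted p = 0.7001). With the replicate block the unadjusted p was 0.0784, and without slide 3 the value was 0.06. *Ptprc*, which encodes CD45, the phosphatase of all leukocytes, gave 0.01, -0.15 and 0.36 in null/WT and 0.10, 0.05 and 0.46 in WT/null replicates. This probe had 10 spots per array, against 1 for the other tested members' main probes. Slide 3 was again the highest in both orientations, with a fitted 0.14 ± 0.08 (adjusted p = 0.720), and without slide 3 the value was 0.004. A second, dimmer *Ptprc* probe stood at -0.04. On slide 3 it gave 0.25 in the null/WT replicate, above 0 like the first probe, and -0.49 in the WT/null replicate. On that slide it was well above background on 2 of 4 null and 3 of 4 WT arrays, so these values rest in part on background. *Laptm5*, a lysosomal membrane gene, stood at 0.07 ± 0.06, *Itgb2*, the leukocyte integrin beta chain gene, at -0.03 ± 0.06 and the tetraspanin gene *Cd53* at -0.06 ± 0.08.

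**Figure D2:**
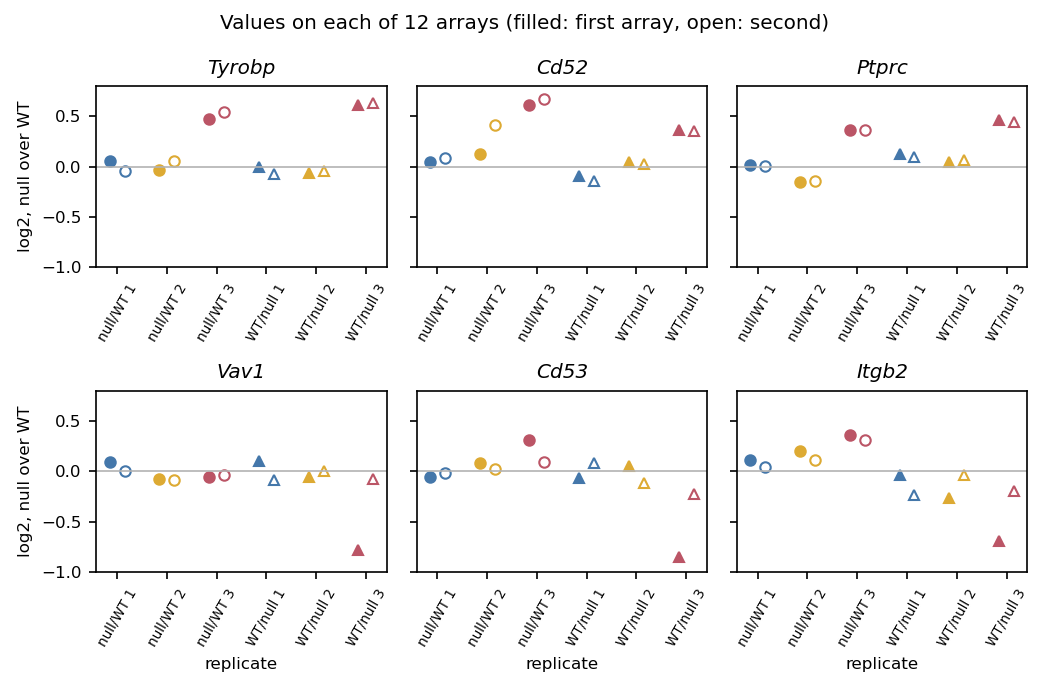
Log2 ratio of null over WT on each of the 12 arrays for 6 member genes, with the first array of a replicate filled and the second open. Tyrobp, Cd52 and Ptprc are high on all 4 arrays of slide 3, while Vav1, Cd53 and Itgb2 have their lowest value on the first array of WT/null replicate 3.

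Of the genes of the leukocyte cytoskeleton and of signalling, 3 of 4 were above 0. *Aif1*, which encodes the actin-bundling protein IBA1, gave 0.16, 0.13 and 0.35 in null/WT and -0.11, -0.07 and 0.11 in WT/null replicates. All null/WT values lay above all WT/null values, and the fit gave 0.09 ± 0.05 (limma adjusted p = 0.711). *Coro1a*, the coronin of leukocytes, stood at 0.04 ± 0.04 with a 95% interval of -0.05 to 0.13, and *Lcp1*, the L-plastin gene, at 0.04 ± 0.04 with -0.05 to 0.13. *Vav1*, a guanine nucleotide exchange factor gene, stood at -0.09 ± 0.06. Leaving out WT/null replicate 3's first array gave -0.03.

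The transcription factor *Irf8*, which directs macrophage fate together with PU.1, gave 0.13, 0.12 and 0.30 in null/WT and -0.17, 0.06 and 0.18 in WT/null replicates. It was above 0 in 5 of 6 replicates, with a fitted 0.10 ± 0.05 (limma adjusted p = 0.711). Its second tested probe, which was dimmer, stood at -0.07 ± 0.06.

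Of the lysosomal, antigen-handling and oxidase genes, 3 of 4 were above 0. *Ctss*, the cathepsin S gene, was singled out after its values were seen, for its wide range. It gave 0.11, 0.35 and 0.64 in null/WT and -0.50, -0.13 and 0.11 in WT/null replicates. Within each orientation slide 1 was lowest and slide 3 highest, and the fit gave 0.10 ± 0.09 (limma adjusted p = 0.754). *Lyz2*, the macrophage lysozyme gene, stood at 0.06 ± 0.06, *Cd74*, the invariant chain gene, at -0.02 ± 0.07, and *Cybb*, the X-linked oxidase subunit gene, at 0.02 ± 0.07. *Cybb* was dim, with 8 of 12 null and 6 of 12 WT arrays well above background.

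Both tested chemokine genes stood above 0. *Pf4*, platelet factor 4, which fetal macrophages and megakaryocytes both express, gave 0.24, 0.37 and 0.40 in null/WT and -0.15, -0.12 and -0.04 in WT/null replicates. Orientation separated its replicates completely, with all 3 null/WT values above 0 and all 3 WT/null values below. The fit, which takes the dye into account, gave 0.12 ± 0.04 (unadjusted p = 0.0221, limma adjusted p = 0.659), and with the replicate block the unadjusted p was 0.0701. *Ccl4*, a macrophage inflammatory chemokine gene, gave 0.02, 0.07 and 0.22 in null/WT and -0.06, 0.16 and 0.28 in WT/null replicates, and was above 0 in 5 of 6. Its fitted value was 0.11 ± 0.05 (adjusted p = 0.710).

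The dye moved many members by more than genotype did. The dye term, log2 Cy5 over Cy3 at equal genotype, passed a limma adjusted p of 0.05 in 3 of 28 members (10.7%, against 15.7% of all genes): *Pf4* (0.22), *Itgb2* (0.22) and *Laptm5* (-0.24). In 9 of 28 members (32.1%, against 40.6% of all genes) the values of one orientation did not overlap those of the other. The dye term was larger in size than the genotype value in 16 of 28, against 66.4% of all genes. All 3 counts are at or below the share among all genes.

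**Figure D3:**
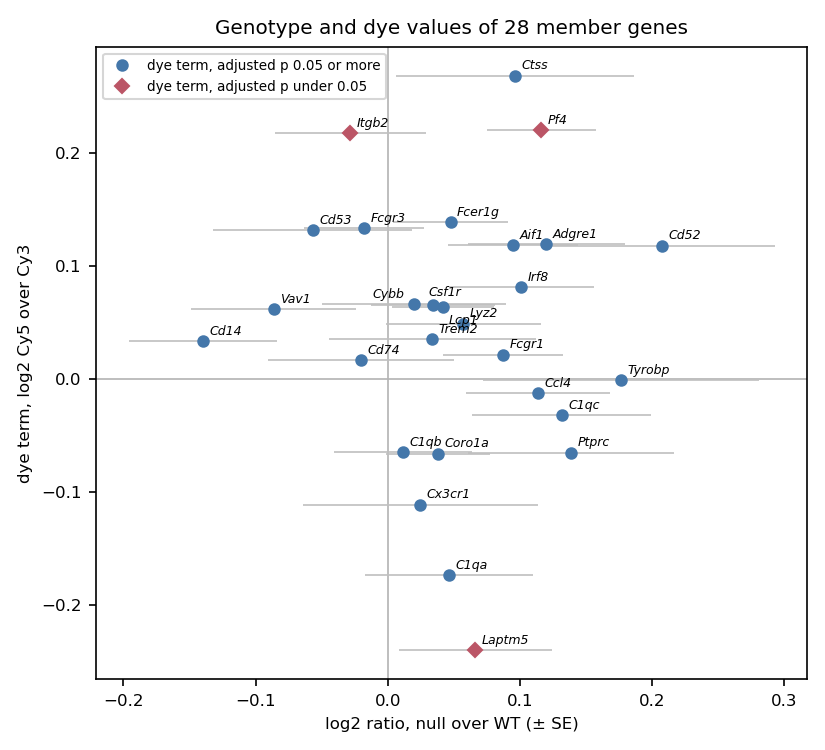
Fitted log2 null over WT with its SE (horizontal axis) against the dye term, log2 Cy5 over Cy3 (vertical axis), for 28 tested member genes, with red diamonds where the dye term passed an adjusted p of 0.05. The dye term runs from -0.24 for Laptm5 to 0.27 for Ctss, a wider span than the genotype values.

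The members' values differed between slides. The median of the 28 members was -0.02 on slide 1, 0.05 on slide 2 and 0.10 on slide 3, and 12, 21 and 20 members were above 0. Over all genes the medians were 0.003, -0.005 and -0.003, with 51.9%, 47.2% and 49.2% above 0. Slide 3 gave the highest value of the 3 slides in 16 of 28 members (57.1%), against 39.1% of all genes, and slide 1 the lowest in 15 (53.6%), against 21.4%. The median of the members was 0.10 without slide 1, 0.07 without slide 2 and 0.03 without slide 3, with 22, 20 and 18 of 28 above 0. Without null/WT replicate 1 it was 0.09.

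Other lists of genes moved with the slides as well. Skeletal muscle genes, 7 of 7 tested above 0, had medians of 0.14, 0.41 and 2.16 on slides 1, 2 and 3. Endothelial genes, 10 of 10 above 0, had 0.06, 0.04 and 0.11, and liver genes, 4 of 5 above 0, had -0.03, 0.05 and 0.26. Erythroid genes, 5 of 9 above 0, had -0.21, 0.01 and 0.11, and kidney markers, 9 of 13 above 0, had 0.02, 0.06 and -0.02. *Myh8* and *Tnnc2*, genes of the contractile apparatus, stood at 1.03 ± 0.30 and 1.05 ± 0.32. *Flt1*, a VEGF receptor gene of endothelium, stood at 0.29 ± 0.04 with 0.26, 0.30 and 0.31 on the slides (limma adjusted p = 0.078). *Lrp2*, the megalin gene of proximal tubule, stood at 0.61 ± 0.10 (adjusted p = 0.199). *Serpina1d*, the liver gene below 0, stood at -1.33 ± 0.19 with -1.07, -2.07 and -0.83 on the slides (adjusted p = 0.137). It was above 0 in 0 of 6 replicates and lies on chromosome 12, as the deleted *Bdkrb2* does. Whether its value reflects that position or liver tissue was not tested. The part of these other tissues in the members' values was not tested.

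**Figure D4:**
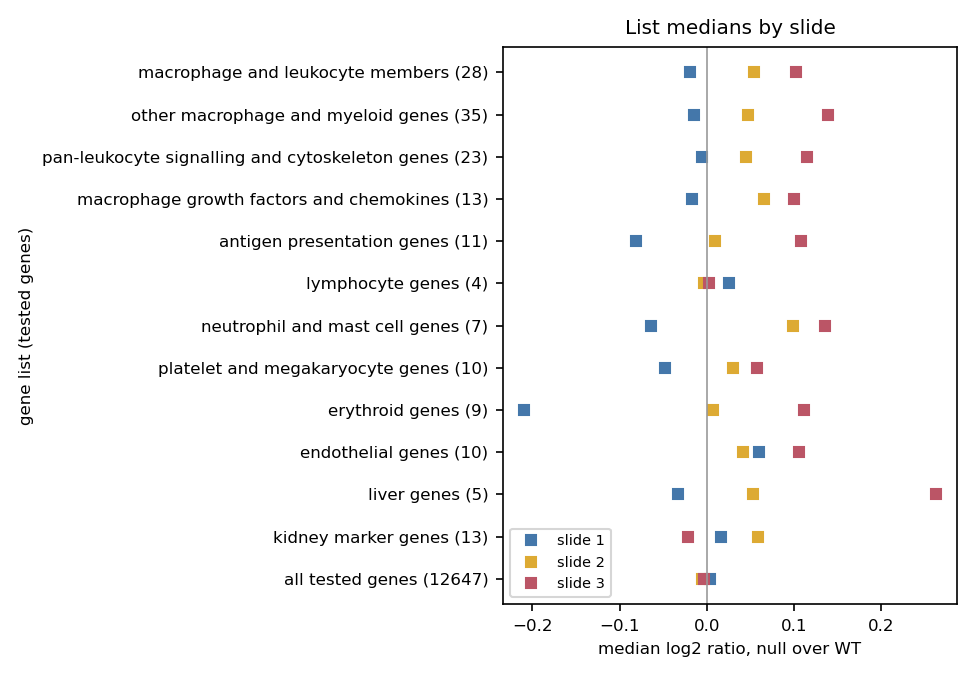
Median log2 ratio of null over WT (horizontal axis) on slides 1, 2 and 3 (coloured squares) for the members, 11 other gene lists and all tested genes (rows, with the number of tested genes). The skeletal muscle list is left out because its slide 3 median of 2.16 is off this scale, and the members have -0.02, 0.05 and 0.10.

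Several probes of 1 gene allowed a second reading for 9 members, and 6 of these had probes of opposite sign. They were *Ptprc* (0.14 and -0.04), *Irf8* (0.10 and -0.07), *Lcp1* (0.04 and -0.09), *Trem2* (0.03 and -0.06), *Csf1r* (0.03 and -0.002) and *Coro1a* (0.04 and -0.01). In each pair the first value is from the brighter probe. The dimmer probes of *Irf8* and *Lcp1* gave -0.70 and -0.72 on the first array of WT/null replicate 3 and -0.08 and 0.12 on the second. When that first array was left out they stood at -0.01 and -0.02. The same step put both *Csf1r* probes above 0 (0.04 and 0.02) and both *Trem2* probes below 0 (-0.005 and -0.05), while the pairs of *Ptprc* and *Coro1a* stayed on opposite sides of 0. *Aif1* (0.09 and 0.002), *Laptm5* (0.07 and 0.05) and *Vav1* (-0.09 and -0.08) had probes of the same sign.

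Macrophage and leukocyte genes outside the 34 also lay mostly above 0. Of 35 tested macrophage and myeloid genes, 29 were above 0 (median 0.07), and of 23 tested genes of leukocyte signalling and cytoskeleton, 19 were (median 0.05). The full lists held 43 and 29 genes, and 6 and 4 of these were well above background on 0 null and 0 WT arrays. The 6 were *Cd163*, *Siglec1*, *Vsig4*, *Tlr4*, *Cd180* and *Itgax*. None of either list passed the limma adjusted p of 0.05, and 7 and 3 had an unadjusted p under 0.05 with a value above 0 (7 of 35 and 3 of 23, against 5.19% of all genes). With the replicate block 1 and 1 did, against 2.61% of all genes. *Mpeg1*, which encodes the pore-forming perforin-2 of macrophages, stood at 0.20 ± 0.07 with 0.10, 0.05 and 0.45 on slides 1, 2 and 3 (adjusted p = 0.675). The tetraspanin gene *Cd63* stood at 0.13 ± 0.05, *Apoe*, the apolipoprotein E gene, at 0.12 ± 0.04, *Plcg2*, a phospholipase gene, at 0.15 ± 0.05, the kinase gene *Lyn* at 0.12 ± 0.04 and *Plek*, the pleckstrin gene, at 0.16 ± 0.06. Dye orientation separated the replicates of *Lyn*, with 0.40, 0.26 and 0.50 in null/WT and -0.18, -0.14 and -0.08 in WT/null. Its dye term was 0.26 (limma adjusted p = 0.0113). On slides 1, 2 and 3 the medians of the 2 lists were -0.01, 0.05 and 0.14, and -0.006, 0.05 and 0.11.

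Growth factors and chemokines that recruit or sustain macrophages were above 0 in 10 of 13 tested genes (median 0.05). By limma 0 passed the adjusted threshold. At an unadjusted p under 0.05, 2 were above 0 (15.4%, against 5.19% of all genes) and 0 below. With the replicate block 2 were above 0 (15.4%, against 2.61% of all genes). *Ccl6*, a chemokine gene of myeloid cells, stood at 0.20 ± 0.05 (limma adjusted p = 0.514), *Cxcl12*, a chemokine gene of stroma, at 0.22 ± 0.06 (adjusted p = 0.588) and above 0 in 6 of 6 replicates, and *Cx3cl1*, the ligand of CX3CR1, at 0.13 ± 0.06. *Csf1* and *Il34*, which encode the ligands of CSF1R, were well above background on all 12 null and 12 WT arrays. The inflammatory cytokine genes *Il1b*, *Tnf*, *Il6* and *Il10* were so on 0 arrays of either genotype.

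Lymphocyte genes were largely below detection. Of 17 lymphocyte genes, 4 were tested and 9, among them *Cd3d*, *Cd8a*, *Cd79a*, *Ms4a1* and *Rag1*, were well above background on 0 of 12 null and 0 of 12 WT arrays. The 4 tested had a median of 0.01, with *Cd3e* at -0.08 ± 0.06, *Cd79b* at 0.03 ± 0.04 and *Lck* at 0.01 ± 0.04. Platelet and megakaryocyte genes, which share *Pf4* with macrophages, were above 0 in 6 of 10 (median 0.01). Their *Clec1b* stood at 0.11 ± 0.04, *Itgb3* at 0.18 ± 0.08 and *Gp9* at 0.11 ± 0.09. By limma 0 of these 10 passed the adjusted threshold. At an unadjusted p under 0.05, 2 were above 0 (20%, against 5.19% of all genes) and 0 below. With the replicate block 0 were above 0, against 2.61% of all genes.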

How the data were processed

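The deposited files hold the authors' median spot and background intensity per dye, with no normalization, and the scanner software's log10 ratios (Feature Extraction software, version 10.5.1.1 in the headers and 6.1 in the submitters' processing notes). The series value table holds log10 ratios deposited by the authors. Its columns correlated with the scanner's null over WT ratios at 0.998 to 0.999 with slopes of 1.00, which gives their scale and direction. Its column medians ran from -0.0218 to 0.00645, and how blanks were chosen stays unknown. No column of it was without a sample.

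Median intensities were corrected with normexp (offset 50) and normalized by loess within arrays, with control and outlier spots (101 to 262 per array) at weight 0 and then left out. Spots of a probe and the 2 arrays of a replicate were averaged. A probe was tested if well above background on at least 6 of 12 null or 6 of 12 WT arrays. In R 4.3.3, limma 3.58.1 fitted log2 null over WT and a dye term over 22979 probes with Benjamini-Hochberg adjustment. A gene is read from its brightest tested probe. The fit was tested on simulated data. Probes were named by RefSeq accession (GRCm38.p6, 25097 of 41174 probes); the array header names mm9, so no array coordinates are given.

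Same-numbered replicates share a slide and deviated together (correlations 0.587, 0.517 and 0.413 for numbers 1, 2 and 3), so the fit was repeated with the replicate number as a block. Members, lists and tests were chosen with earlier results of these data known. Values in every replicate are given for *Csf1r*, *Ptprc*, the C1q genes and the 10 members with the smallest p, and for *Tyrobp* and *Ctss*, chosen after their values were seen, and up to 3 genes of each other list are named. The number of arrays limits the precision (median SE 0.0506).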

Additional observations from a re-analysis of the deposited data

Results flagged for a closer look

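Of the 28 tested members, 2 had a replicate far from the other 5 by Dixon's criterion for 6 values, which chance meets in about 1 in 20 groups. *Vav1* had a log2 null over WT of -0.43 in WT/null replicate 3, and *Cd53* had -0.54 in the same replicate. On the first array of that replicate they stood at -0.78 and -0.85, and on the second at -0.08 and -0.22. Both are among the 5 tested members that were not well above background on every array. The median of those 5 was -0.70 on that first array and -0.12 on the second, while the median of the other 23 was 0.14 and 0.09. *Fcgr3*, which is among those 23, gave -0.52 and 0.02. Without that array the fitted values of *Vav1* and *Cd53* were -0.03 and -0.004. The cause was not tested.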

How the results depend on the processing

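Under all 19 alternative fits 0 member genes passed the limma adjusted threshold, and at least 18 of 28 members were above 0 where all 28 were tested. With no filter 33 members were read and 26 were above 0. The count of all probes past the threshold, 9, was 4 with the replicate block, 148 with 12 arrays and duplicateCorrelation, 3 without slide 2, 62 without slide 3, 15 when WT/null replicate 3 kept its second array alone (an alternative chosen after the data were seen) and between 5 and 12 without each replicate in turn. Median centring instead of loess put the members at a median of 0.21, when all genes stood at 0.16. The replicate block left 0 members at an unadjusted p under 0.05, against 3 in the unpaired fit. Over the other alternatives that number ran from 0 to 11. For single members, 547 of 555 values stayed within 1 SD between replicates of the reported one. The other 8 were 6 values under median centring and those of *Cybb* (0.26) from the scanner's ratios and from the authors' value table. The sign changed in 43 of the 555, and 13 members kept theirs throughout, among them *Cd52*, *Pf4*, *C1qc*, *Adgre1*, *Aif1* and *Cd14*. Signals near background limit *Spi1*, *Itgam*, *Mrc1*, *Ccr2* and *Ccl3* to a statement of detection.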

Other observations

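Mast cell and neutrophil genes were measured in the same kidneys. Of 7 tested genes, 5 were above 0 (median 0.07), and 0 passed the limma adjusted threshold. At an unadjusted p under 0.05, *Cma1* was above 0 (14.3%, against 5.19% of all genes) and *Mpo* below (14.3%, against 2.59%). *Cma1*, a mast cell chymase gene, stood at 0.31 ± 0.11 with -0.11, 0.44 and 0.61 on slides 1, 2 and 3, and *Cpa3*, the mast cell carboxypeptidase gene, at 0.23 ± 0.11 with -0.02, 0.10 and 0.60. Other mast cell genes of the list were too dim to test. *Mcpt4* and *Tpsb2* were well above background on 0 null and 0 WT arrays, *Ms4a2* on 1 and 1, and *Fcer1a* on 1 and 4. A difference in mast cells was not tested. *Mpo*, the myeloperoxidase gene of granulocyte precursors, stood at -0.15 ± 0.07 and was well above background on 8 of 12 null and 12 of 12 WT arrays. It gave -0.93 on the first array of WT/null replicate 3 and -0.09 on the second. With the first left out the value was -0.08 and no longer at an unadjusted p under 0.05. With that array kept, limma with the replicate block gave an unadjusted p of 0.0270 for *Mpo* and 0.0519 for *Cma1*. At that block threshold 0.886% of all genes were below 0 and 2.61% above.

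Antigen presentation genes were above 0 in 6 of 11 (median 0.01). The immunoproteasome genes *Psmb8* and *Psmb9* stood at 0.20 ± 0.08 and 0.16 ± 0.09, with slide values of -0.09, 0.37 and 0.32, and -0.14, 0.26 and 0.38. *Ciita*, the regulator gene of MHC class II, stood at -0.12 ± 0.05. Among erythroid genes, *Hbb-bh1*, an embryonic globin gene, stood at -0.34 ± 0.09 (limma adjusted p = 0.514), with -0.65, -0.25 and -0.12 on slides 1, 2 and 3, and *Hba-x*, the zeta globin gene, at -0.18 ± 0.13. The orientations of *Hbb-bh1* did not overlap, with -0.34, 0.06 and 0.17 in null/WT and -0.97, -0.55 and -0.42 in WT/null replicates. Globin genes have relatives in sequence, and a probe may read more than 1 of them.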
